A study of Mus musculus with 24 samples.

Results

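Intact mouse embryos at the morula stage were compared with intact embryos at the 8-cell stage. The comparison used 9 of the 24 embryo libraries in the series, from 4 control 8-cell embryos and 5 control morulae, and each library came from a single embryo. All 9 were ICR embryos made by in vitro fertilization and kept at 37 °C under 6% CO2 and 5% O2, and none was split or given any other named agent. The series also holds embryos grown from separated blastomeres of 2-cell embryos and intact blastocysts. They shared in the filter of tested genes, the scaling and the estimate of the spread between embryos, but not in the contrast. Litter, sex, culture day and library batch are not in the labels, so p-values measure only the spread between embryos within the groups of the series. RNA was primed with oligo(dT) and amplified as full-length cDNA by Smart-seq2, a method for very small inputs.

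Between these stages the mouse embryo compacts. Its cells flatten against each other through E-cadherin, acquire an apical and a basal side, and divide into outer cells, which become trophectoderm and later pump fluid into the blastocyst cavity, and inner cells, which keep pluripotency. Polarised outer cells hold the Hippo pathway off, so that YAP and TEAD factors turn on trophectoderm genes. The remaining transcripts loaded into the egg are cleared over the same days while the embryonic genome supplies new ones.

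Stage markers were looked at first. They were chosen with earlier results of these data known, so their direction is not an independent check of the labels. Of the 10 markers listed as higher at the morula stage, 8 rose and none fell, and their summed level was 30.4 to 274 CPM in 8-cell embryos and 1160 to 1810 CPM in morulae. CPM is counts per 1000000 counts of the library after scaling with the trimmed mean of M-values (TMM). Of the 8 markers listed as higher at the 8-cell stage, 5 could be tested and 4 of these fell, from a sum of 91.8 to 139 CPM to a sum of 0 to 6.83 CPM. Markers of cells outside the embryo were scarce. Summed markers of cumulus and granulosa cells lay between 0 and 13.8 CPM in all 9 libraries, with 11 of 15 at 0 throughout, and those of fibroblasts between 0 and 5.15 CPM, with 7 of 11 at 0 throughout. Summed sperm markers were 10 to 13.8 CPM at the 8-cell stage and 1.23 to 2.25 CPM in morulae, and 1 of 7 tested fell, the germ cell lactate dehydrogenase Ldhc. Summed blood markers were 12 to 36.4 CPM against 0 to 5.3 CPM, carried by the alpha-globin gene Hba-a1, while the leukocyte marker Ptprc was at 0 in all 9. Their part in the results was not tested.

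The 8-cell libraries held 26282853 to 38514899 counts and the morula libraries 13888842 to 19014808, without overlap. With every library thinned to 13000000 counts, 12596 ± 495 genes (SD, n = 4) were detected at the 8-cell stage and 12885 ± 321 (SD, n = 5) at the morula stage, a difference not past the threshold (two-sided exact permutation test, p = 0.333; the smallest p this design allows is 0.0159). The 100 highest genes took 30.7% ± 1.54 (SD, n = 4) and 31.6% ± 1.18 (SD, n = 5) of counts (two-sided exact permutation test, p = 0.365). Log2 CPM profiles correlated at 0.83 to 0.86 among 8-cell embryos, at 0.848 to 0.862 among morulae and at 0.743 to 0.786 between the stages. Since a library holds a whole embryo, fewer cells of a type and less RNA per cell cannot be told apart, and each level is relative to the library's total.

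Of 15875 genes tested, 24.9% were called at an adjusted p under 0.05 in edgeR's quasi-likelihood test, 14.3% higher and 10.7% lower in morulae, and the median log2 fold change over all tested genes was 0.09. Called genes whose groups did not overlap made up 9.65% of tested genes in the higher direction and 8.01% in the lower. Each list count below is to be read against these shares. Lists and members were chosen with earlier results of these data known, so the counts describe the lists and are not independent support. A gene that was not called is not shown to be unchanged. All fold changes are morula over 8-cell on the log2 scale, with standard errors (SE), and values are given in order of embryo number, 8-cell embryos 1 to 4 and then morulae 1 to 5. Most members rose in the lists of actin and myosin genes, the TCA cycle, thiol and iron metabolism, the proteasome and complex I. For complex I this did not hold in every fit with 1 embryo left out. Most members fell among mitochondrially encoded and cytosolic ribosomal proteins.

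**Figure D1:**
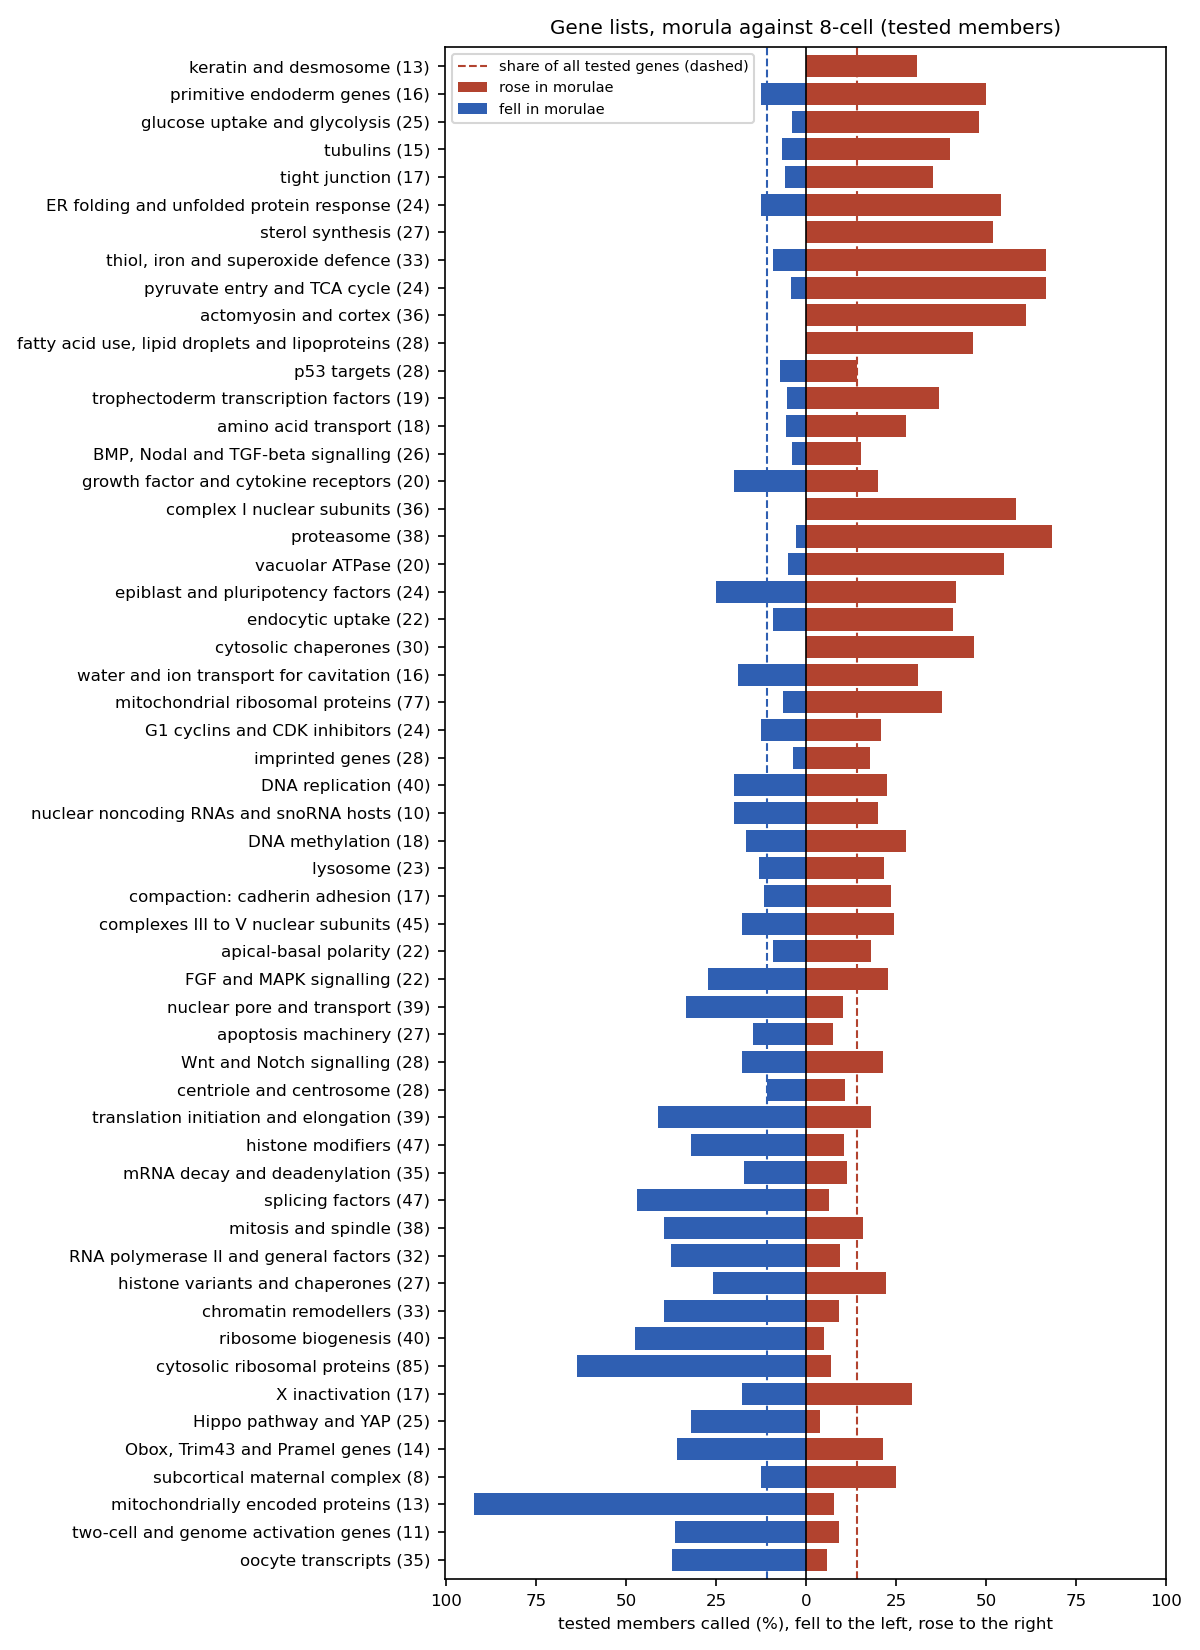
Share of the tested members of each gene list called higher (to the right) or lower (to the left) in morulae, in percent, with the number tested in brackets and dashed lines at the shares of all tested genes, 14.3% higher and 10.7% lower. Actomyosin, TCA cycle, thiol and iron, proteasome and complex I lists extend far to the right, and mitochondrially encoded, cytosolic ribosomal, ribosome biogenesis and splicing lists far to the left.

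A set of genes went from no or almost no counts to abundant expression. Klf6, a zinc-finger transcription factor, had 0 counts in all 4 8-cell embryos and 44.3, 37.8, 57, 78.2 and 160 CPM in morulae, at least 720-fold higher (adjusted p = 6e-08). Serpinb9b, a serine protease inhibitor, was likewise at 0 in every 8-cell embryo and at 60.5, 39.2, 104, 16.2 and 114 CPM in morulae, at least 639-fold higher (adjusted p = 5.1e-08). Fgfbp1, a secreted carrier of fibroblast growth factors, reached 65.9, 9.81, 55.1, 9.75 and 134 CPM from 0, at least 524-fold higher (adjusted p = 8.9e-05). These bounds take 3 counts per library as the floor. Every morula held each of the 3 genes, and morula 5 had the highest level of each.

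Others of this kind had a few counts at the 8-cell stage. Tspan3, a tetraspanin of the plasma membrane, was at 0.0295, 0, 0 and 0 CPM and then 81.5, 103, 70, 106 and 85.6 CPM (adjusted p = 7.5e-13). Glrx, the glutaredoxin that reduces glutathionylated proteins, was at 0, 0, 0.0417 and 0 CPM and then 82.2, 93.4, 66.7, 78.4 and 129 CPM (adjusted p = 8.5e-11). Acot2, a mitochondrial acyl-CoA thioesterase, was at 0.0295, 0, 0 and 0.0337 CPM and then 62, 84.7, 83.5, 57.3 and 106 CPM (adjusted p = 1.3e-12). In all 3 the morulae lay close together and far above any 8-cell embryo. Enpep, the cell-surface aminopeptidase A, rose from at most 0.0674 CPM to between 30.9 and 152 CPM (adjusted p = 1.8e-08). Ptges, a prostaglandin E synthase, rose from at most 1.21 CPM to between 51 and 117 CPM (adjusted p = 0.00076), and Noto, a homeobox factor known from the notochord, from at most 2.3 CPM to between 40.6 and 104 CPM (adjusted p = 0.00039). Neither gene's groups overlapped.

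The mirror set was expressed at the 8-cell stage and close to 0 in morulae. Aqp5, a water channel, was at 38.4, 90.3, 106 and 94.1 CPM at the 8-cell stage and at 0, 0, 0, 0.196 and 0.0579 CPM in morulae (adjusted p = 1.3e-07). Brdt, a bromodomain protein known from spermatogenesis, went from 37.3, 94.8, 149 and 56.3 CPM to 0, 3.31, 0, 1.11 and 1.56 CPM (adjusted p = 0.0045). Fcgr3, an Fc receptor for immunoglobulin G, went from 29.7, 65.3, 66.4 and 63.7 CPM to 0, 2.98, 0, 0 and 2.26 CPM (adjusted p = 0.0043). No morula came near the lowest 8-cell embryo in any of them. Dhtkd1, a mitochondrial dehydrogenase of lysine breakdown, fell from between 32.9 and 73.6 CPM to between 0 and 4.91 CPM (adjusted p = 0.0021). Omt2b, an oocyte maturation gene, fell from between 40.3 and 148 CPM to at most 5.89 CPM (adjusted p = 0.0089), and Kank4, a KANK family scaffold, from between 45.6 and 83.6 CPM to at most 5.22 CPM (adjusted p = 0.015). For 3 more large falls the call was lost when single embryos were left out. Obox8, a homeobox gene of a repeated cluster, was at 20.5, 134, 492 and 82.6 CPM and at 0 in all morulae, at least 929-fold lower (adjusted p = 0.048), and the call was lost without any 1 of 8 embryos, all but 8-cell embryo 3. Foxa1, a forkhead factor, was at 199, 75.3, 70.2 and 35.2 CPM and then 0, 0.464, 6.69, 0 and 3.76 CPM (log2 fold change -5.45 ± 1.87, adjusted p = 0.046) and lost its call without any 1 of 8 embryos, all but morula 3, without which its log2 fold change was -6.47. Pfkfb3, whose product drives glycolytic flux (log2 fold change -4.73 ± 1.5, adjusted p = 0.029), lost it without 8-cell embryo 3 or morula 2.

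Oocyte transcripts fell more often than they rose. Of 46 listed, 35 could be tested, of which 13 fell and 2 rose. The median log2 fold change was -2.78, and -4.9 to -1.66 over the alternative fits. Members at 0 in all morulae, such as Nlrp14 and Nlrp4a, could be called only as falls, so the tally partly follows from which members could be tested. No rise was left without 8-cell embryo 1, and 1 was left without 8-cell embryo 3 or 4 or morula 1, 2 or 4. Nlrp14, a maternal-effect gene, was at 13.1, 6.97, 15.1 and 28.6 CPM in 8-cell embryos and at 0 in all 5 morulae, at least 81.2-fold lower (adjusted p = 0.0033). Its relative Nlrp4a was at 0.826, 20.1, 6.8 and 5.66 CPM and at 0 in every morula (adjusted p = 0.0066). Wee2, the oocyte kinase that restrains meiosis, was at 12.2, 0, 5.84 and 5.6 CPM and likewise at 0 in morulae (adjusted p = 0.017), with 8-cell embryo 2 already at 0. Oosp1, a secreted oocyte protein, was at 0.531, 0.83, 13 and 5.97 CPM and at 0 in morulae (adjusted p = 0.015). For the subcortical maternal complex, which sits under the membrane of the egg, 8 listed genes could be tested. Of these 2 rose and 1 fell, with a median log2 fold change of -0.95. The rises were Khdc3 and Cfl1, the cofilin gene, which is described below with the cell cortex. The falls were 0 without 8-cell embryo 2 and 2 without morula 1. Zbed3, which fell, was at 7.32, 37.9, 6.13 and 20.2 CPM and then 0.469, 0.729, 1.85, 1.18 and 2.61 CPM (log2 fold change -3.71 ± 1.06, adjusted p = 0.014), without overlap. Khdc3 was at 35.1, 25, 6.17 and 15.2 CPM at the 8-cell stage and at 303, 272, 296, 365 and 317 CPM in morulae (log2 fold change 3.93 ± 0.38, adjusted p = 3.7e-07), and the lowest morula lay far above the highest 8-cell embryo. Nlrp5, another subunit of that complex named here after its values were seen, stayed under 6 CPM in all 9 embryos and was not called (adjusted p = 0.86). In the repeated Obox, Trim43 and Pramel families, where copies can share reads, Trim43b fell from 1858, 1714, 2039 and 2756 CPM to 402, 284, 339, 462 and 322 CPM (log2 fold change -2.53 ± 0.53, adjusted p = 0.0022). Pramel5 rose from 118, 93.9, 40.8 and 89.1 CPM to 377, 540, 410, 277 and 455 CPM (log2 fold change 2.27 ± 0.44, adjusted p = 0.00088), and the groups overlapped in neither. Among 26 genes known from the 2-cell stage and genome activation 11 could be tested, and 4 fell and 1 rose. Ubtfl1, a retrogene of that list, fell from 129, 187, 199 and 159 CPM to 23.3, 18.9, 22.8, 21.7 and 37.7 CPM (log2 fold change -2.76 ± 0.41, adjusted p = 3.4e-05).

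By difference of mean CPM, a measure that favours abundant and long transcripts, the largest gains included cytoskeletal, junction and chaperone genes. Actb, cytoplasmic beta-actin, was at 1285, 400, 366 and 319 CPM in 8-cell embryos and at 17639, 11778, 17212, 13304 and 14613 CPM in morulae. Its log2 fold change was 4.65 ± 0.5 (adjusted p = 8.4e-06), and 5.36 without 8-cell embryo 1, the highest of its group. Actin genes have retrocopies in the genome that can share their reads. Gja1, a connexin of gap junctions, was at 625, 284, 313 and 550 CPM and then 4784, 6802, 4383, 3834 and 4742 CPM (log2 fold change 3.47 ± 0.29, adjusted p = 7.1e-08). Timd2, a cell-surface receptor for ferritin, was at 14313, 10713, 9480 and 7383 CPM and then 22808, 24273, 18951, 26247 and 22507 CPM (log2 fold change 1.13 ± 0.32, adjusted p = 0.017), and its call was lost without 8-cell embryo 4 and against a minimum fold of 1.5. Set, a histone chaperone, rose from 2650, 2351, 2411 and 2651 CPM to 6769, 7293, 6288, 5392 and 6318 CPM (log2 fold change 1.35 ± 0.15, adjusted p = 1.2e-06). Tmem41b, a lipid scramblase of the endoplasmic reticulum (ER), rose from between 1987 and 3015 CPM to between 4832 and 7224 CPM. Wtap, a subunit of the complex that methylates adenosine in mRNA, rose from between 373 and 994 CPM to between 2793 and 4630 CPM (log2 fold change 2.33 ± 0.31, adjusted p = 1.8e-05). Lrpap1, the chaperone of LDL-receptor family proteins, rose from between 398 and 988 CPM to between 2413 and 3426 CPM (log2 fold change 2.21 ± 0.22, adjusted p = 1.8e-07). The phosphatase Ptp4a2 rose from between 345 and 565 CPM to between 2280 and 3625 CPM (log2 fold change 2.58 ± 0.2, adjusted p = 1.3e-08). All these groups were apart.

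The largest losses by the same measure included genes of protein synthesis. Eif2s2, a subunit of the initiation factor that brings in the first tRNA, was at 9762, 8508, 7812 and 8437 CPM and then 4400, 5395, 5561, 4358 and 4557 CPM (log2 fold change -0.83 ± 0.16, adjusted p = 0.0004), a fall not past the test against a minimum fold of 1.5. Eloc, the adaptor elongin C, was at 5212, 5253, 7296 and 7241 CPM and then 2232, 2766, 3423, 2592 and 2636 CPM (log2 fold change -1.2 ± 0.16, adjusted p = 8.6e-06). Npm1, the nucleolar chaperone nucleophosmin, was at 6557, 6656, 6226 and 5724 CPM and then 3281, 3741, 3037, 3015 and 3031 CPM (log2 fold change -0.97 ± 0.15, adjusted p = 7.8e-05). The 8-cell embryos all lay above the morulae. Mt1, a metallothionein that binds zinc and copper, fell from between 2518 and 3725 CPM to between 688 and 1692 CPM (log2 fold change -1.5 ± 0.25, adjusted p = 0.00013). Against this turnover 46 genes of at least 500 CPM kept a 95% interval of the log2 fold change within 0.5 of 0. Cnbp, a nucleic acid binding protein, was at 3720, 2528, 2841 and 3740 CPM and 3616, 3234, 3660, 3695 and 3868 CPM, and Gabarapl2, an autophagy adaptor, at 3207, 2735, 2604 and 2763 CPM and 2466, 3030, 2692, 2586 and 3139 CPM. Their log2 fold changes were 0.17 ± 0.14 and -0.02 ± 0.16. The groups overlapped in both.

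**Figure D2:**
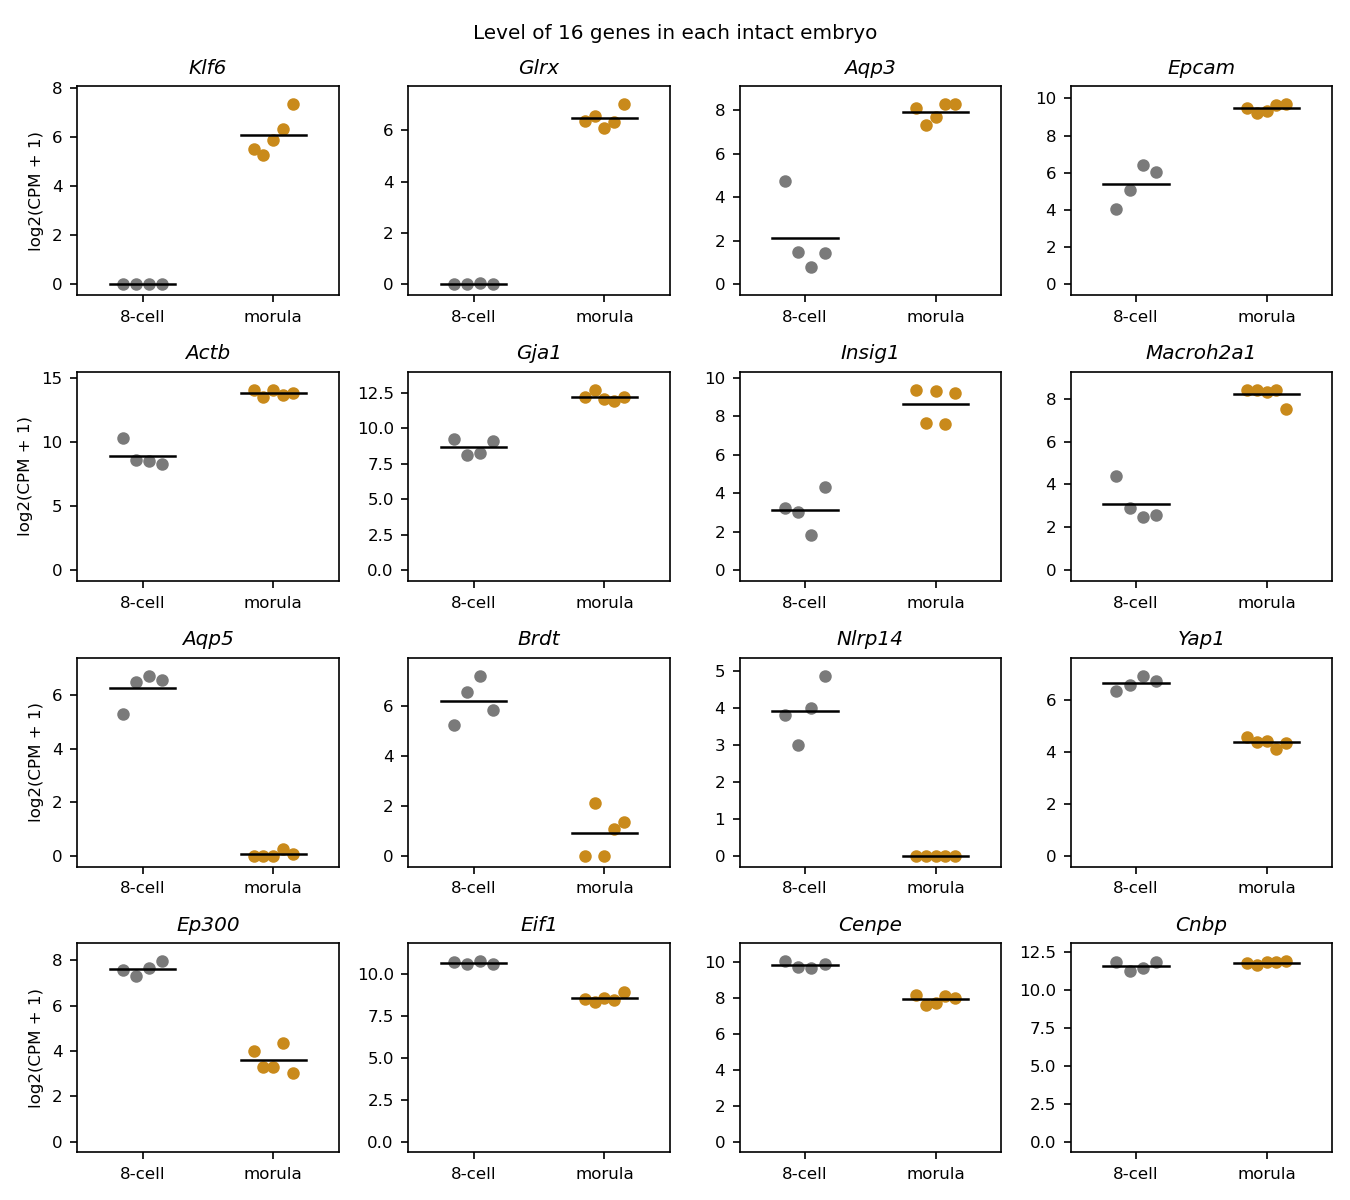
Level of 16 genes in each intact embryo as log2(CPM + 1), 8-cell embryos on the left and morulae on the right of each panel, with 1 point an embryo and bars at the mean of the log values. The panels run from genes absent or low at the 8-cell stage, such as Klf6 and Glrx, through genes lost by the morula stage, such as Aqp5 and Nlrp14, to Cnbp, which stayed between 2528 and 3868 CPM.

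Genes of the cell cortex rose together. Of 36 actin, myosin and cortical genes tested, 22 rose and none fell, with 19 to 22 rising when 1 embryo was left out, and the median log2 fold change was 1.3. Cfl1, the actin-severing protein cofilin, rose from 477, 407, 433 and 611 CPM to 1204, 1049, 1073, 1103 and 1280 CPM (log2 fold change 1.24 ± 0.14, adjusted p = 1.6e-06). The next 4 members were picked after their values were seen. Myh9, the heavy chain of non-muscle myosin, was at 11.3, 8.92, 9.05 and 17.3 CPM and then 115, 121, 227, 89.1 and 131 CPM (log2 fold change 3.55 ± 0.36, adjusted p = 2.9e-07). Tpm4, a tropomyosin, was at 23.7, 14.9, 19.7 and 44.2 CPM and then 190, 174, 201, 142 and 202 CPM, with an adjusted p of 0.00028. The other cytoplasmic actin, Actg1, was at 61.8, 34.6, 9.55 and 28.6 CPM and then 487, 485, 300, 394 and 569 CPM, with an adjusted p of 0.0004. Pfn1, profilin, which feeds actin monomers to growing filaments, rose from 1047, 506, 659 and 835 CPM to 1721, 1424, 1754, 1583 and 1469 CPM (log2 fold change 1.06 ± 0.18, adjusted p = 0.00012). In none of the 5 genes did a morula lie as low as the highest 8-cell embryo.

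Adhesion and polarity genes moved much less as lists. Among 17 cadherin adhesion genes 4 rose and 2 fell, with a median log2 fold change of 0.2. The 4 core members took different courses. Cdh1, E-cadherin, was at 103, 18, 44.3 and 85.9 CPM in 8-cell embryos and 124, 94, 78.5, 68 and 122 CPM in morulae (log2 fold change 0.63 ± 0.37, adjusted p = 0.21). Its partner Ctnnb1, beta-catenin, was at 42.3, 57.6, 41.4 and 37.9 CPM and 46.8, 40.2, 47.1, 53 and 49.7 CPM (log2 fold change 0.08 ± 0.23, adjusted p = 0.85). Neither was called, and both sets of values overlapped, with the lowest Cdh1 in 8-cell embryo 2. Alpha-catenin, Ctnna1, named after its values were seen, was at 256, 96.6, 57.7 and 119 CPM and 260, 265, 269, 158 and 287 CPM (log2 fold change 0.9 ± 0.29, adjusted p = 0.027), and its rise was not called without 8-cell embryo 2, 3 or 4 or morula 5. Ctnnd1, p120-catenin, was at 50.4, 15.7, 32 and 35.1 CPM and 12.5, 23.3, 14.5, 10.3 and 9.5 CPM (log2 fold change -1.25 ± 0.42, adjusted p = 0.036), and its fall was not called without any 1 of 7 embryos. The groups overlapped in these too. The adhesion molecule Epcam was the member with the largest rise, from 15.6, 33.2, 84.8 and 63.8 CPM to 707, 590, 632, 797 and 828 CPM, with a log2 fold change of 3.85 ± 0.52 (adjusted p = 4e-05). Epb41l5, a cortical adaptor of the basolateral side, rose from 13.6, 11.3, 15.5 and 26.2 CPM to 58.3, 70.7, 76.7, 94.8 and 154 CPM (log2 fold change 2.45 ± 0.39, adjusted p = 6.3e-05). The falls of this list were fragile, with 0 or 1 left whenever 1 embryo was left out. Of 22 polarity genes tested 4 rose and 2 fell, with a median of 0.03 and with 2 to 5 rising when 1 embryo was left out, the fewest without 8-cell embryo 2. The falls were 1 without 8-cell embryo 2 or 3 or morula 1, 3 or 4. Not called were, among others, Rhoa, the GTPase of the contractile cortex, with a log2 fold change of -0.23 ± 0.15, the apical Crumbs protein Crb3 with -0.17 ± 0.27, and the basolateral Scrib with 0.03 ± 0.88.

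The Hippo list tilted downward, with 8 of 25 tested members lower and 1 higher (median log2 fold change -0.79). Yap1, the coactivator that the pathway keeps out of the nucleus, was at 82, 95.1, 123 and 106 CPM in 8-cell embryos and at 23.1, 19.7, 20.7, 16.5 and 19.2 CPM in morulae (log2 fold change -2.36 ± 0.25, adjusted p = 6.2e-07). Mob1b, an activator of the LATS kinases, was at 120, 86, 110 and 182 CPM and then 42.9, 23.1, 15.7, 33.7 and 40.1 CPM (log2 fold change -2.0 ± 0.41, adjusted p = 0.00096). The 8-cell embryos stood above all morulae in both genes. The kinases themselves were not called, with log2 fold changes of -1.6 ± 0.71 for Lats1 and -1.35 ± 0.55 for Lats2, nor was the scaffold Amot at 1.03 ± 0.91. The count of falling members was 4 without 8-cell embryo 1 or 4 or morula 1 or 4 and 5 without 8-cell embryo 2 or morula 3, and the count of rising members was 3 without 8-cell embryo 1 and 2 without morula 5. Yap1 and Mob1b kept their calls in each of these fits.

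Trophectoderm factors rose in 7 of 19 tested members and fell in 1, or in 2 without morula 4. Klf6, described above, belongs to this list. Gata3, a zinc-finger factor of the trophoblast, rose from 6.35, 10.9, 3 and 1.75 CPM to 200, 253, 277, 141 and 181 CPM (log2 fold change 5.25 ± 0.57, adjusted p = 3.6e-06). Elf3, an epithelial ETS factor, rose from 0, 0, 3.25 and 1.52 CPM to 92.3, 84.6, 88.8, 113 and 52.8 CPM (log2 fold change 6.2 ± 1.09, adjusted p = 0.00058). Both served above as stage markers, and both kept the call in all 20 alternatives. Id2, an inhibitor of basic helix-loop-helix factors, rose from 3.95, 6.14, 0 and 0 CPM to 16.3, 33.8, 115, 47.7 and 71.3 CPM, with an adjusted p of 0.01. Cdx2, the caudal factor that specifies trophectoderm, stayed at or under 3.66 CPM in every embryo and was not called (adjusted p = 0.5), but it was called higher without 8-cell embryo 1, the sole 8-cell embryo with counts of it. Klf5, also active in this lineage, was not called, at -0.34 ± 0.32 on the log2 scale. Among structural genes of the future epithelium, 6 of 17 tight junction genes rose and 1 fell. Cgn, cingulin of the tight junction plaque, was at 13.3, 1.62, 8.18 and 38.9 CPM and then 263, 159, 237, 339 and 384 CPM, with an adjusted p of 0.00022. Ocln, the membrane protein occludin, was at 24.4, 2.42, 10.8 and 19.2 CPM and then 51.9, 36.5, 53.7, 80 and 45.8 CPM, with an adjusted p of 0.014. Every morula exceeded every 8-cell embryo in both, by a wide margin for cingulin and a narrow one for occludin.

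Genes of water and ion transport, which later fill the cavity, split. Of 16 tested, 5 rose and 3 fell. The glycerol and water channel Aqp3 was at 26.3, 1.84, 0.751 and 1.72 CPM and then 277, 161, 206, 312 and 309 CPM (adjusted p = 0.00084), while its relative Aqp5 fell to near 0. Atp1b1, a beta subunit of the sodium pump, was at 4.43, 5.02, 0 and 2.16 CPM and then 42.4, 17.6, 67.9, 9.16 and 38.5 CPM (adjusted p = 0.0067), and the call was lost with the replicate number as a block. The stages did not overlap in any of these 3 genes, though the margin of Atp1b1 was narrow.

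Pluripotency factors changed in both directions, 10 of 24 tested members rising and 6 falling. Tet2, a dioxygenase that oxidises methylcytosine, was at 27.8, 9.38, 24.6 and 6.71 CPM and then 492, 589, 532, 366 and 448 CPM (log2 fold change 4.82 ± 0.43, adjusted p = 1.6e-07). The 5 that follow were chosen after their values were seen. Sall4, a zinc-finger factor needed for the inner cell mass, was at 204, 188, 211 and 191 CPM and then 1530, 1239, 1447, 1335 and 1313 CPM (log2 fold change 2.79 ± 0.23, adjusted p = 2.6e-08). Both genes were tightly grouped within morulae and far from the 8-cell embryos. Tfcp2l1, a factor of naive pluripotency, rose from 84.7, 24.1, 25.3 and 65.3 CPM to 418, 400, 297, 260 and 443 CPM (log2 fold change 2.87 ± 0.36, adjusted p = 7e-06). Zfp42, also called Rex1, rose from 161, 86.7, 44.5 and 107 CPM to 289, 304, 330, 282 and 280 CPM (log2 fold change 1.57 ± 0.25, adjusted p = 8.7e-05). In the other direction Klf4, a reprogramming factor, fell from 212, 66.5, 97.3 and 136 CPM to 27.4, 31, 17.5, 21.8 and 41.9 CPM (log2 fold change -2.2 ± 0.36, adjusted p = 8.8e-05). Nr5a2, an orphan nuclear receptor that acts in early cleavage, fell from 243, 230, 257 and 368 CPM to 51.6, 82.8, 88.9, 74.9 and 114 CPM (log2 fold change -1.74 ± 0.25, adjusted p = 2.5e-05). The groups stayed apart in all 4 of these. Pou5f1, which encodes OCT4 and has retrocopies that can take its reads, was counted at no more than 21.4 CPM in any embryo and was not called (adjusted p = 0.12). Dppa2 and Dppa4, which act together on chromatin, were not called, at -0.47 ± 0.2 and -0.35 ± 0.15 on the log2 scale. In signalling, Stat3, the transducer of LIF signals, rose from 0, 2.06, 4.46 and 0.539 CPM to 53.8, 21.3, 52, 26 and 26.9 CPM (adjusted p = 0.00062). Etv5, a factor downstream of FGF signals, rose from 3.48, 0, 0.626 and 4.18 CPM to 26.1, 22.7, 9.3, 24.5 and 7.99 CPM (adjusted p = 0.01), a call that the fit on the 9 embryos alone did not make. Of 22 FGF and MAPK genes 5 rose and 6 fell, with 3 rising without 8-cell embryo 2 or 4 or morula 1 and 3 falling without 8-cell embryo 1 or morula 4 or 5.

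Uptake and acidification genes rose more often than they fell. Of 22 endocytic genes, 9 rose and 2 fell, and of 20 tested subunits of the vacuolar ATPase, the proton pump of endosomes and lysosomes, 11 rose and 1 fell. The endocytic falls were 1 without 8-cell embryo 2, 3 or 4 or morula 1 or 3. The ATPase fall was lost without 8-cell embryo 2 or 4 or any 1 of the morulae, though without morula 3 another subunit was called lower. Igf2r, the receptor that carries mannose-6-phosphate cargo and IGF2 to lysosomes, was at 277, 175, 236 and 209 CPM and then 1776, 1224, 1381, 1223 and 1627 CPM (log2 fold change 2.69 ± 0.27, adjusted p = 2.4e-07). Clathrin heavy chain, Cltc, was at 105, 112, 89.7 and 104 CPM and then 336, 499, 303, 290 and 396 CPM (log2 fold change 1.83 ± 0.33, adjusted p = 0.00034). Snx1, a sorting nexin of the retromer, was at 87.5, 58.2, 63.4 and 66.6 CPM and then 206, 181, 195, 262 and 252 CPM (log2 fold change 1.67 ± 0.19, adjusted p = 1.7e-06). The groups did not overlap in any of the 3. The endocytic adaptor Dab2 rose from 134, 31.9, 14.4 and 61.5 CPM to 216, 185, 315, 202 and 245 CPM (adjusted p = 0.0029), with 8-cell embryo 1 nearest to the morulae. Pump subunit Atp6v1f rose from 64.9, 122, 80.5 and 76.7 CPM to 293, 305, 258, 297 and 298 CPM (log2 fold change 1.76 ± 0.17, adjusted p = 2.2e-07). Atp6v1g1 rose from 103, 203, 80.2 and 159 CPM to 448, 550, 429, 492 and 528 CPM (log2 fold change 1.84 ± 0.25, adjusted p = 1.1e-05), and Atp6v0b from 173, 146, 136 and 105 CPM to 368, 437, 329, 406 and 386 CPM (log2 fold change 1.46 ± 0.16, adjusted p = 1.2e-06). In the lysosome list 5 of 23 rose and 3 fell, with 1 falling without morula 1, 2 or 3. The protease gene Ctsd was among those that rose, from 50.4, 31.3, 16.6 and 58.6 CPM to 104, 88.7, 78.7, 124 and 125 CPM (log2 fold change 1.41 ± 0.29, adjusted p = 0.0012). Another protease gene, Ctsl, was among those that fell, with its call kept in all 20 alternatives.

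Energy metabolism genes encoded in the nucleus rose more often than they fell. For pyruvate entry and the TCA cycle, 16 of 24 rose and 1 fell (median log2 fold change 1.3), and for glucose uptake and glycolysis 12 of 25 rose and 1 fell. Idh3a, the catalytic subunit of the NAD-linked isocitrate dehydrogenase, was at 38.2, 13.4, 18.7 and 19.4 CPM and then 223, 298, 298, 153 and 227 CPM (log2 fold change 3.42 ± 0.53, adjusted p = 0.00013). Idh2, the NADP-linked mitochondrial form, was at 15.4, 5.67, 6.63 and 10.2 CPM and then 124, 62.4, 75.7, 80.6 and 130 CPM (log2 fold change 3.31 ± 0.4, adjusted p = 2.9e-06). The morulae stood clear of the 8-cell embryos in both. The fall in this list was Mpc2, a subunit of the carrier that brings pyruvate into mitochondria, named after its value was seen, from 1317, 1125, 1254 and 1037 CPM to 261, 331, 281, 241 and 209 CPM (log2 fold change -2.16 ± 0.21, adjusted p = 2e-07). The lactate dehydrogenase subunits moved in opposite directions. Ldhb, the heart-type subunit, went from 13, 20.5, 22.7 and 20 CPM to 0.293, 0, 0.384, 3.34 and 0.174 CPM (adjusted p = 0.021). Ldha, the muscle-type subunit, picked after its values were seen, went from 2.15, 1.95, 5.3 and 0.0337 CPM to 18.8, 28, 27.4, 27.9 and 13.9 CPM (adjusted p = 0.013), a call that limma-voom did not make. Every morula was above every 8-cell embryo for Ldha and under every one for Ldhb. The glycolytic genes Gapdh, Aldoa, Eno1 and Pgam1 have near-identical copies that can share reads, and their levels here are uncertain.

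Respiratory chain transcripts from the 2 genomes went different ways. Of 36 nuclear complex I subunits 21 rose and none fell, with 17 to 21 rising when 1 embryo was left out, and a median of 0.76. Of 45 nuclear subunits of complexes III to V, 11 rose and 8 fell, with a median of 0.09, the same as all genes. Among the 13 transcripts encoded in mitochondria 12 fell and 1 rose. Uqcrc1, a core protein of complex III, was at 135, 127, 72.7 and 149 CPM and then 643, 492, 452, 684 and 556 CPM (log2 fold change 2.22 ± 0.2, adjusted p = 7.1e-08). Cytochrome c1, Cyc1, was at 102, 80.7, 72.4 and 91.5 CPM and then 262, 235, 221, 225 and 234 CPM (log2 fold change 1.44 ± 0.17, adjusted p = 2.6e-06). Ndufv1, the NADH-binding subunit of complex I, was at 25.8, 15.4, 10.7 and 21.3 CPM and then 66.5, 48.2, 63.4, 54.4 and 96.4 CPM (log2 fold change 1.85 ± 0.29, adjusted p = 6.3e-05). In these nuclear genes, all among those that rose, every morula was above every 8-cell embryo. The largest called change among complexes III to V was a fall, that of Cox6b2, which was not called without 8-cell embryo 3.

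The mitochondrial falls ran over a wide range. mt-Co2, a subunit of cytochrome oxidase, went from 92.6, 99, 122 and 86.5 CPM to 11.6, 12.1, 10.4, 14.8 and 15.4 CPM (log2 fold change -2.96 ± 0.29, adjusted p = 2e-07). mt-Co1, its catalytic subunit, went from 4206, 4906, 6242 and 3124 CPM to 1855, 2451, 1623, 2359 and 1583 CPM (log2 fold change -1.23 ± 0.24, adjusted p = 0.00069). mt-Nd3, of complex I, went from 20.7, 23.6, 24.7 and 19.6 CPM to 0.293, 0.331, 0.154, 0.785 and 0.811 CPM, with an adjusted p of 9.4e-05. These 3 did not overlap between stages. The rise was in mt-Cytb, the cytochrome b of complex III, picked after its values were seen, at 16030, 15298, 21477 and 13273 CPM and then 28926, 32267, 27777, 37862 and 18102 CPM (log2 fold change 0.81 ± 0.19, adjusted p = 0.0039), with morula 5 inside the 8-cell range. It was not past the test against a minimum fold of 1.5. With mt-Cytb included, the share of all counts in the 13 transcripts was 4.37% ± 0.958 (SD, n = 4) and 3.99% ± 0.852 (SD, n = 5), which did not pass the two-sided exact permutation test (p = 0.54). Nuclear copies of mitochondrial sequence can share reads with these genes, and how such reads were counted is not given in the sources used here.

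**Figure D3:**
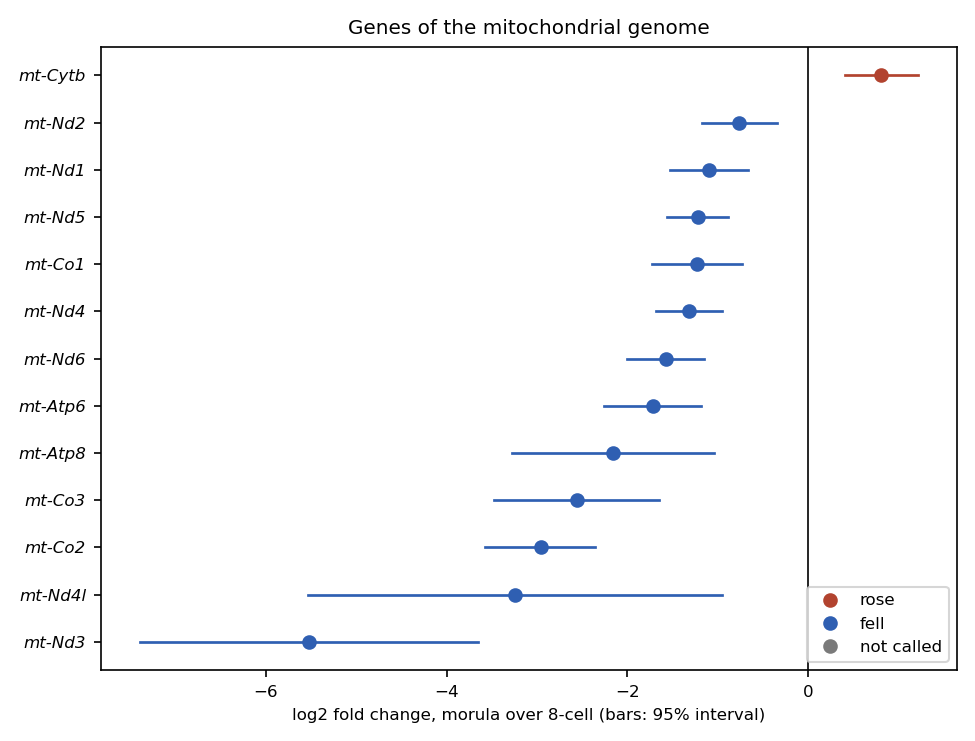
Log2 fold change, morula over 8-cell, of the 13 protein-coding transcripts of the mitochondrial genome, as points with 95% intervals from the edgeR fit. mt-Cytb at 0.81 lies right of 0 and the other 12 lie left of it, down to -5.52 for mt-Nd3.

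Lipid genes rose without a called fall. Of 27 sterol synthesis genes 14 rose, and of 28 genes of fatty acid use and lipid droplets 13 rose. A fall was called in the sterol list without morula 4 and in the other without 8-cell embryo 4 or morula 3 or 5. Insig1, which holds back sterol synthesis when sterol is plentiful, was at 8.56, 7.11, 2.59 and 18.8 CPM in 8-cell embryos and at 668, 199, 631, 192 and 590 CPM in morulae (adjusted p = 3.9e-05). Every morula was higher than every 8-cell embryo, with morulae 2 and 4 well under the other 3. The members that follow were picked after their values were seen. Sc5d, a late desaturase of the pathway, was at 24, 12.4, 4.25 and 1.82 CPM and then 162, 101, 108, 98 and 86.7 CPM (adjusted p = 0.00013). By contrast Sqle, squalene epoxidase, overlapped at 27.3, 42.6, 48.8 and 38.9 CPM and 46.9, 28.2, 78.2, 82.1 and 59.5 CPM (log2 fold change 0.58 ± 0.29, adjusted p = 0.14), as did Hmgcs1, a synthase early in the pathway, at 57.8, 103, 113 and 61.5 CPM and 93.6, 118, 136, 125 and 150 CPM (log2 fold change 0.57 ± 0.32, adjusted p = 0.19). Neither was called. Among fat storage genes, Plin2, the coat protein of lipid droplets, was at 0.797, 6.17, 16 and 0.809 CPM and then 294, 186, 164, 213 and 115 CPM (adjusted p = 0.00036). Scd2, a fatty acid desaturase, was at 1.53, 0, 0 and 3.07 CPM and then 92.3, 55.7, 82.6, 118 and 53.3 CPM (adjusted p = 0.00098).

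Genes of thiol, iron and superoxide handling gave 22 rises and 3 falls among 33. Hmox1, heme oxygenase, which frees iron from heme, was at 0 in the 8-cell embryos and at 18, 22, 14.5, 21.1 and 44.9 CPM in morulae, at least 230-fold higher (adjusted p = 2.2e-08). Gstp1, a glutathione transferase, was at 9.71, 5.38, 6.01 and 3.98 CPM and then 131, 114, 68.8, 135 and 136 CPM (log2 fold change 4.22 ± 0.35, adjusted p = 2.7e-08). Gss, glutathione synthetase, was at 1.45, 1.73, 3.09 and 1.15 CPM and then 24.9, 20.1, 21.9, 17.4 and 32.9 CPM (log2 fold change 3.66 ± 0.39, adjusted p = 6e-07). None of the groups overlapped. Iron storage and iron import moved apart in genes chosen after their values were seen. Ferritin heavy chain Fth1 rose from 440, 520, 617 and 462 CPM to 1303, 1097, 1204, 1731 and 1204 CPM (log2 fold change 1.36 ± 0.15, adjusted p = 1.2e-06), and the light chain Ftl1 from 145, 66.7, 89.5 and 216 CPM to 1001, 1109, 699, 1160 and 2169 CPM (log2 fold change 3.25 ± 0.41, adjusted p = 1.9e-05). The transferrin receptor Tfrc fell from 1490, 1082, 1086 and 1243 CPM to 153, 147, 211, 121 and 170 CPM (log2 fold change -2.94 ± 0.36, adjusted p = 6e-06). In each of the 3 the stages were separate. Ferritin genes, like actins, have retrocopies that can share reads. Mt2, also looked up later, fell like Mt1, to 48.9, 135, 267, 69.7 and 75.7 CPM from 266, 258, 490 and 213 CPM (adjusted p = 0.017), but lost its call without 8-cell embryo 3.

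Protein folding genes of the cytosol and the ER rose more often than they fell. Among 30 cytosolic chaperones 14 rose and none fell. Hsp90aa1, the inducible HSP90, was at 3954, 2764, 2571 and 2135 CPM and then 10110, 10539, 8679, 10564 and 10799 CPM (log2 fold change 1.83 ± 0.19, adjusted p = 4.9e-07). Hspa14, a ribosome-associated HSP70, was at 49.9, 81.9, 83.5 and 87.7 CPM and then 473, 499, 462, 463 and 394 CPM (log2 fold change 2.6 ± 0.18, adjusted p = 2.2e-09). Hsf2, a heat shock transcription factor, was at 126, 91.5, 39 and 105 CPM and then 583, 569, 615, 333 and 529 CPM (log2 fold change 2.54 ± 0.3, adjusted p = 1.9e-06). Morulae were above 8-cell embryos throughout. In the ER list 13 of 24 rose and 3 fell, with a median of 1.49. Only 1 fall was left without 8-cell embryo 4, morula 1 or morula 3. Of 38 proteasome genes 26 rose and 1 fell, with a median of 0.75.

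ER chaperone genes are known for a promoter element that binds the factors ATF6 and NF-Y, which reads CCAAT, 9 bases of any kind and CCACG, and their promoters were searched for it on both strands. The windows run from 250 bases before to 50 bases after the start site, from RefSeq on GRCm38.p6, and 22 of the 24 tested ER genes had one. The element was present in 6 of those 22, Hspa5, Hsp90b1, Calr, Canx, Pdia6 and Creld2, and in 20 of all 11385 windows of tested genes (0.176%). No window of the sterol or cytosolic chaperone genes held it. Of 4 other motifs searched in the same way, the CCAAT box, CCAAT, which the ER element contains, was in 18 of the 22 ER windows, 17 of 20 sterol windows, 13 of 31 proteasome windows and 19 of 64 windows of cytosolic ribosomal proteins, against 39.5% of all windows. The sterol element TCACNCCAC was in 1 of 20 sterol windows, that of Hmgcs1, and in 0 of 21 windows of fatty acid genes, against 1.17% of all. The antioxidant element TGACNNNGC was in 6 of 27 thiol and iron windows and 5 of 31 proteasome windows, against 14.7% of all. The CHR element of cell cycle genes, TTTGAA, was in 22 of 31 mitosis windows, where 5 of the 6 genes that rose and 10 of the 13 that fell had it, and in 4 of 32 replication windows, against 12.5% of all. Of the 20 genes with the ER element, 9 rose and 1 fell, the 6 ER genes among those that rose. A match is a run of letters and not a measured binding site. The windows of 4 of these 6 genes, chosen as chaperones of the ER, are shown as examples of the element, each 5′ to 3′ on the gene's strand, with the element in capitals. Hspa5 lies at chr2:34771840-34772139 (plus strand), Calr at chr8:84846882-84847181 (minus), Canx at chr11:50325624-50325923 (minus) and Hsp90b1 at chr10:86705395-86705694 (minus), where the element occurs on each strand.
Hspa5: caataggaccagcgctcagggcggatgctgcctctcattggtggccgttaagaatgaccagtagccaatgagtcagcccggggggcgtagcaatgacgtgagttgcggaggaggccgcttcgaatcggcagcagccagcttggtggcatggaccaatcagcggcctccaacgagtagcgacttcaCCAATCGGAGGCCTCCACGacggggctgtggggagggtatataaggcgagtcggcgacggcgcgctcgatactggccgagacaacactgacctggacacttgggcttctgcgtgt
Calr: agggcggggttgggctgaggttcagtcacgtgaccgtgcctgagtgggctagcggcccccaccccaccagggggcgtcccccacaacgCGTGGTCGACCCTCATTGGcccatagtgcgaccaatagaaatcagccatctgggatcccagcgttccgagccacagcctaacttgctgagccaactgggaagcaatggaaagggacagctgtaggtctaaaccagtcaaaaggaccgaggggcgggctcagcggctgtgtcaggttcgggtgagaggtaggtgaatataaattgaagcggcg
Canx: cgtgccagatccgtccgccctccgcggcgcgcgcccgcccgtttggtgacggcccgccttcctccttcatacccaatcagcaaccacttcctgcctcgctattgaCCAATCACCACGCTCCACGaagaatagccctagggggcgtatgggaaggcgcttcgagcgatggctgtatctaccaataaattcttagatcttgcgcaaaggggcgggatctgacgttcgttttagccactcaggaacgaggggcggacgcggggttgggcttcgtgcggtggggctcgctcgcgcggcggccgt
Hsp90b1: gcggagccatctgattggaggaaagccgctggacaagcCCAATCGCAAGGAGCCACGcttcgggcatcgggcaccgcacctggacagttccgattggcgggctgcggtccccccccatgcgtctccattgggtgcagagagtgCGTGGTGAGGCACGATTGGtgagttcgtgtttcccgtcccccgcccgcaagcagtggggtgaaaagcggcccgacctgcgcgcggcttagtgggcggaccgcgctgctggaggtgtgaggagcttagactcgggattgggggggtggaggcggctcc

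The levels of these genes were as follows. Canx, calnexin, which holds glycoproteins until folded, was at 268, 235, 234 and 294 CPM and then 1313, 2135, 1415, 1647 and 1234 CPM (log2 fold change 2.59 ± 0.2, adjusted p = 1.3e-08). The remaining carriers of the element were described after their values were seen. Hspa5, the ER HSP70 known as BiP, was at 81.7, 71.1, 102 and 122 CPM and then 349, 258, 306, 379 and 386 CPM (log2 fold change 1.83 ± 0.19, adjusted p = 5.5e-07). Calr, the soluble relative of calnexin, was at 67.9, 51.9, 32.8 and 47.5 CPM and then 96, 198, 139, 188 and 150 CPM (log2 fold change 1.62 ± 0.23, adjusted p = 1.6e-05). Stages were apart in all 3. Hsp90b1, the ER HSP90, was at 38.6, 30.4, 10.3 and 48.9 CPM and then 120, 177, 102, 114 and 123 CPM (log2 fold change 1.99 ± 0.39, adjusted p = 0.00084). Creld2, an ER stress protein, was at 62.1, 55.5, 54.3 and 60 CPM and then 373, 315, 237, 303 and 327 CPM (log2 fold change 2.42 ± 0.18, adjusted p = 7.4e-09). Pdia6, a disulfide isomerase, was at 15, 20.2, 27.6 and 25.4 CPM and then 59.6, 83.6, 79.9, 84 and 67.2 CPM (log2 fold change 1.76 ± 0.23, adjusted p = 8.4e-06). Again no embryo crossed between groups. Pdia4, another isomerase and without the element, rose from 14.6, 5.92, 11.8 and 8.23 CPM to 58.2, 64.9, 58.4, 61.5 and 65.2 CPM (log2 fold change 2.6 ± 0.26, adjusted p = 2.5e-07). The sensors of unfolded protein went the other way or were not called. Atf6 itself was at 49.1, 29.1, 23.9 and 39.3 CPM and 8.92, 24.8, 7.61, 3.92 and 16.7 CPM, and Ern1 (IRE1) at 14.2, 34.8, 10.1 and 16.3 CPM and 0.235, 4.24, 2.77, 0 and 7.59 CPM. Atf6 was called lower (adjusted p = 0.026), but not without 8-cell embryo 1 or 4 or morula 1, 3 or 4, and Ern1 was not called (adjusted p = 0.066). These 2 and Dnajb9 were also picked after their values were seen. Dnajb9, the cochaperone that keeps IRE1 inactive, fell from 634, 824, 1325 and 622 CPM to 271, 368, 269, 291 and 241 CPM (log2 fold change -1.56 ± 0.33, adjusted p = 0.0014).

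**Figure D4:**
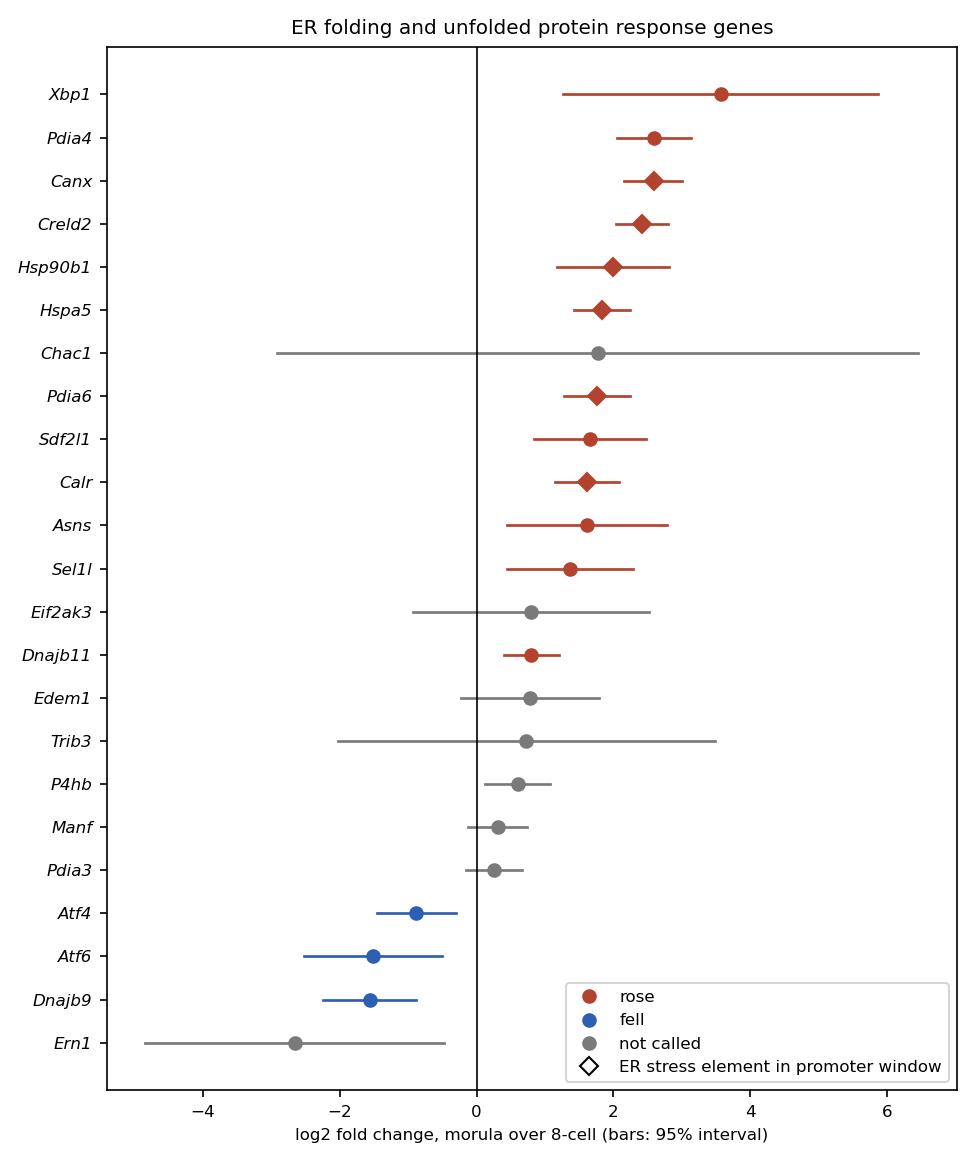
Log2 fold change, morula over 8-cell, of the tested ER folding and unfolded protein response genes with 95% intervals, with diamonds for the 6 genes whose promoter window holds the ER stress element. Herpud1, at 0 in all 8-cell embryos, is left out. All 6 diamonds lie right of 0, from 1.62 for Calr to 2.59 for Canx.

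Proteasome genes differed in the size of their change. Psmb3, a core beta subunit, rose from 442, 348, 381 and 316 CPM to 1010, 1225, 934, 1080 and 1159 CPM (log2 fold change 1.54 ± 0.13, adjusted p = 4e-08). Psmc3, an ATPase of the cap, rose from 128, 106, 77.8 and 152 CPM to 406, 382, 403, 427 and 434 CPM (log2 fold change 1.82 ± 0.18, adjusted p = 1.7e-07). Psmd10, an assembly chaperone of the cap, rose from 31.4, 13.6, 12.7 and 38.3 CPM to 132, 96.7, 155, 175 and 172 CPM (log2 fold change 2.6 ± 0.37, adjusted p = 1.8e-05). Embryos of the stages did not mix. Psmb9, the inducible subunit of the immunoproteasome, was at 0 in all 8-cell embryos and at 23.4, 37.9, 8.84, 13.3 and 10.1 CPM in morulae, at least 179-fold higher (adjusted p = 7.7e-06). The fall was Psma6, a core alpha subunit named after its value was seen, from 1410, 1591, 1596 and 1492 CPM to 912, 942, 1043, 1050 and 1123 CPM (log2 fold change -0.59 ± 0.13, adjusted p = 0.0019), and it was not past the test against a minimum fold of 1.5.

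The translation apparatus declined in relative level. Of 85 cytosolic ribosomal proteins 54 fell and 6 rose (median log2 fold change -0.68), of 40 ribosome biogenesis genes 19 fell and 2 rose (median -0.64), and of 39 translation factors 16 fell and 7 rose (median -0.36). Rises among ribosomal proteins dropped to 3 without 8-cell embryo 4. Rps21 was at 1094, 944, 1025 and 845 CPM and then 264, 323, 435, 304 and 321 CPM (log2 fold change -1.57 ± 0.15, adjusted p = 1.3e-07). Rpl22 was at 1066, 763, 682 and 755 CPM and then 231, 324, 308, 291 and 250 CPM (log2 fold change -1.54 ± 0.16, adjusted p = 3.2e-07). Rps6, by contrast, was even at 2358, 2226, 1811 and 1682 CPM and 1963, 2498, 1707, 1968 and 1905 CPM (log2 fold change -0.01 ± 0.16, adjusted p = 1). Ribosomal protein genes have many processed copies in the mouse genome, so that single members are uncertain. Eif1, which selects the start codon, fell from 1657, 1547, 1730 and 1557 CPM to 361, 319, 381, 344 and 495 CPM (log2 fold change -2.09 ± 0.14, adjusted p = 1.3e-09). Eif5b, which joins the ribosomal subunits, fell from 1539, 1295, 1408 and 1208 CPM to 304, 355, 406, 324 and 336 CPM (log2 fold change -1.98 ± 0.14, adjusted p = 2.1e-09). Eif3a, the largest subunit of eIF3, fell from 1429, 1563, 1606 and 1475 CPM to 406, 576, 531, 491 and 584 CPM (log2 fold change -1.55 ± 0.13, adjusted p = 3.8e-08). Within each stage these 3 varied little. Eif4ebp1, the brake on cap-dependent initiation that mTOR releases, rose from 134, 103, 165 and 104 CPM to 740, 729, 603, 568 and 473 CPM (log2 fold change 2.3 ± 0.22, adjusted p = 1.7e-07).

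In ribosome biogenesis Gnl3, nucleostemin, fell from 631, 1039, 1243 and 771 CPM to 253, 285, 272, 347 and 222 CPM (log2 fold change -1.74 ± 0.2, adjusted p = 1.8e-06). Ddx21, a nucleolar helicase, fell from 442, 588, 591 and 626 CPM to 152, 170, 175, 142 and 247 CPM (log2 fold change -1.66 ± 0.17, adjusted p = 3.1e-07). Heatr1, needed for transcription of rRNA genes, fell from 115, 201, 144 and 195 CPM to 43.8, 24.3, 39.5, 54.3 and 57.7 CPM (log2 fold change -1.9 ± 0.28, adjusted p = 2.9e-05). Rrn3, which brings RNA polymerase I to those genes, was at 181, 139, 148 and 202 CPM and then 761, 939, 808, 698 and 851 CPM (log2 fold change 2.27 ± 0.17, adjusted p = 5.2e-09), opposite to the other 3. Ribosomal proteins of the mitochondrion went with the nuclear mitochondrial genes, 29 of 77 higher and 5 lower (median 0.38), with 3 lower without morula 1 or morula 4. Mrpl17 was at 177, 123, 152 and 114 CPM and then 761, 875, 662, 552 and 556 CPM (log2 fold change 2.27 ± 0.25, adjusted p = 8.1e-07), without overlap.

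Nuclear RNA and chromatin genes tilted downward. Of 47 splicing factors 22 fell and 3 rose, of 39 nuclear pore genes 13 fell and 4 rose, of 33 chromatin remodellers 13 fell and 3 rose, of 47 histone modifiers 15 fell and 5 rose, and of 32 genes of RNA polymerase II and its factors 12 fell and 3 rose. The medians were -0.5, -0.11, -0.62, -0.38 and -0.52. Snrpc, the U1 snRNP protein C, fell from 440, 559, 581 and 574 CPM to 197, 104, 124, 168 and 162 CPM (log2 fold change -1.84 ± 0.21, adjusted p = 1.4e-06). Tpr, the basket of the nuclear pore, fell from 580, 631, 902 and 812 CPM to 163, 150, 173, 158 and 196 CPM (log2 fold change -2.12 ± 0.16, adjusted p = 7.2e-09). Baz1a, a subunit of ISWI remodellers, fell from 824, 780, 891 and 1049 CPM to 231, 286, 229, 195 and 202 CPM (log2 fold change -1.95 ± 0.16, adjusted p = 2.6e-08). These were uniform losses, with each morula under each 8-cell embryo. Chd4, the NuRD remodeller, fell from 75.8, 98.1, 106 and 129 CPM to 27, 33.3, 27.9, 19.7 and 29.6 CPM (log2 fold change -1.89 ± 0.25, adjusted p = 9.5e-06). Supt5, a pausing and elongation factor, fell from 151, 68.3, 113 and 145 CPM to 31.3, 14.6, 25.6, 18.7 and 22.1 CPM (log2 fold change -2.41 ± 0.28, adjusted p = 1.9e-06). Med14, the backbone of Mediator, fell from 141, 225, 140 and 240 CPM to 24.3, 1.66, 16.2, 16.4 and 17.4 CPM (log2 fold change -3.62 ± 0.55, adjusted p = 5.3e-05). Morula 2 held the least Med14 by far.

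Some chromatin and nuclear genes rose strongly. Macroh2a1, the macroH2A histone variant found on inactive chromatin, was at 19.8, 6.46, 4.55 and 4.86 CPM and then 334, 334, 319, 341 and 183 CPM (adjusted p = 8.5e-06). Kdm6b, which removes methyl groups from lysine of the Polycomb mark, was at 19.7, 26.9, 10.2 and 24 CPM and then 472, 406, 382, 345 and 315 CPM (log2 fold change 4.25 ± 0.31, adjusted p = 5.9e-09), while the demethylase Kdm4c fell from 79.6, 68.6, 123 and 93.1 CPM to 4.81, 10.5, 4.54, 3.27 and 13.1 CPM (log2 fold change -3.65 ± 0.66, adjusted p = 0.00028). Neither crossed between stages. Nup98 rose from 126, 96.3, 127 and 112 CPM to 532, 515, 349, 450 and 555 CPM (log2 fold change 2.06 ± 0.18, adjusted p = 4.7e-08) among falling pore genes, and the general factor Gtf2a1 from 39.9, 38.3, 12.7 and 41.3 CPM to 252, 299, 131, 111 and 206 CPM (log2 fold change 2.59 ± 0.35, adjusted p = 1.2e-05). Malat1, a nuclear noncoding RNA of speckles, rose from 826, 461, 269 and 339 CPM to 1578, 1898, 2231, 2562 and 2505 CPM (log2 fold change 2.19 ± 0.31, adjusted p = 3.9e-05). All 3 were higher in every morula.

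Transcript length moved with these calls. Genes of at least 20 CPM on average were split by the longest transcript of the gene in GENCODE M21, matched by symbol for 98.1% of tested genes. Of the 5 classes, the shortest, 102 to 1575 bases, had 30.6% rising and 23.1% falling, with a median log2 fold change of 0.15. The longest, 4883 bases and over, had 15.1% rising and 35.6% falling, with a median of -0.5. The median length was 6188 bases in the remodeller list, 4853 in the histone modifier list, 4584 in the nuclear pore list, 3230 in the list of RNA polymerase II and its factors and 3118 in the splicing list, the last 2 within the middle class. It was 1026 in the complex I list. Ribosomal proteins, at a median of 1059 bases, fell all the same. The part of length in the list counts was not tested.

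**Figure D5:**
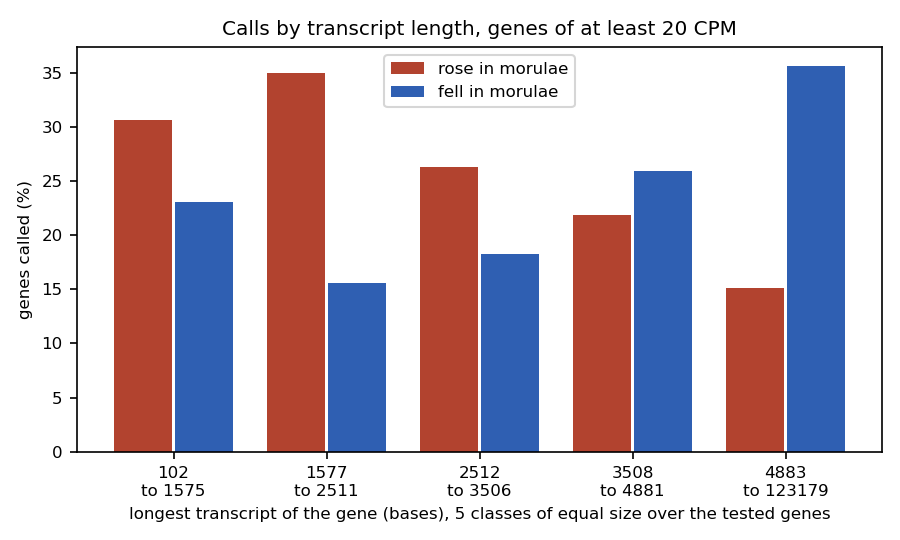
Percent of genes called higher and lower in morulae in 5 classes of transcript length, for genes with a mean of at least 20 CPM. The share that fell is lowest in the second-shortest class at 15.6% and highest in the longest at 35.6%, where 15.1% rose.

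Cell division genes leaned toward lower levels, 15 of 38 mitosis and spindle genes falling and 6 rising, with 3 rising without 8-cell embryo 2. Cenpe, the kinetochore motor, fell from 1048, 856, 810 and 941 CPM to 282, 194, 207, 275 and 253 CPM (log2 fold change -1.92 ± 0.15, adjusted p = 1.3e-08). Prc1, which bundles microtubules of the central spindle, fell from 345, 332, 496 and 574 CPM to 114, 102, 90.7, 147 and 131 CPM (log2 fold change -1.9 ± 0.22, adjusted p = 1.3e-06). Bub3, a checkpoint protein, rose from 148, 76.6, 153 and 92.8 CPM to 478, 466, 409, 473 and 404 CPM (log2 fold change 1.92 ± 0.19, adjusted p = 2.6e-07). No embryo of these 3 crossed. DNA replication genes were even, 9 rising and 8 falling of 40. Rfc1, the large subunit of the clamp loader, fell from 316, 215, 354 and 262 CPM to 118, 86.3, 99.6, 75.3 and 137 CPM (log2 fold change -1.47 ± 0.22, adjusted p = 4.2e-05). At the centrosome, where mouse embryos form centrioles anew, Pcnt fell from 78.6, 78.6, 47.8 and 101 CPM to 13.4, 11.5, 27.9, 13.7 and 18.8 CPM (log2 fold change -2.17 ± 0.39, adjusted p = 0.0003), and Cetn3, a centrin, rose from 215, 127, 88.8 and 83.3 CPM to 667, 615, 515, 515 and 405 CPM (log2 fold change 2.08 ± 0.3, adjusted p = 2.7e-05). In that list 3 of 28 centrosome genes rose and 3 fell.

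The p53 gene itself, Trp53, was at 14.8, 4.62, 10.2 and 1.52 CPM and then 64.6, 42.2, 54.9, 65.9 and 50.1 CPM (log2 fold change 2.84 ± 0.47, adjusted p = 0.0001), and its inhibitor Mdm4 was at 133, 234, 195 and 114 CPM and then 44.6, 53.7, 62.7, 27.7 and 37.1 CPM (log2 fold change -1.9 ± 0.29, adjusted p = 4.2e-05). The 2 moved in opposite directions without overlap. Of 28 p53 target list genes 4 rose and 2 fell, with 2 rising without 8-cell embryo 4 or morula 1. In the apoptosis list 2 of 27 rose and 4 fell, with 4 rising without 8-cell embryo 2. Birc6, a large inhibitor of caspases, rose from 260, 190, 157 and 239 CPM to 955, 938, 1229, 684 and 964 CPM (log2 fold change 2.17 ± 0.21, adjusted p = 1.8e-07), and Xiap, another inhibitor, fell from 81.4, 90.5, 36 and 93.3 CPM to 12.6, 42.4, 16.9, 17.9 and 42.3 CPM (log2 fold change -1.51 ± 0.4, adjusted p = 0.0078). Birc6 separated the stages, and Xiap did not, since 8-cell embryo 3 lay within the morula range.

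Among imprinted genes 5 of 28 tested rose and 1 fell, or 2 without morula 5. Impact, expressed from the paternal copy in mouse, was at 8.09, 10.6, 57.1 and 28.8 CPM and then 216, 168, 219, 204 and 205 CPM (adjusted p = 8.6e-05), with 8-cell embryo 3 the highest of its group. Y-linked Ddx3y was at 66.8, 0.0361, 86.7 and 0 CPM in 8-cell embryos and 79.6, 165, 65.2, 79.5 and 0 CPM in morulae, with 8-cell embryos 2 and 4 and morula 5 at or near 0. Those same 3 embryos had the highest levels of the X-inactivation RNA Xist, which was at 0, 95.2, 0 and 199 CPM and 0.0587, 4.97, 3.54, 0.262 and 148 CPM, and neither gene was called. None of the 8 tested Y-linked genes was called. Both genes were set side by side after their values were seen. Of 17 X-inactivation genes 5 rose and 3 fell. Rbm15, a cofactor of Xist silencing, rose from 39.6, 101, 33.5 and 32.1 CPM to 288, 288, 268, 139 and 228 CPM (log2 fold change 2.23 ± 0.31, adjusted p = 1.6e-05), Lbr, which tethers Xist to the lamina, rose from 130, 95.9, 131 and 78.1 CPM to 247, 483, 279, 376 and 306 CPM (log2 fold change 1.64 ± 0.24, adjusted p = 2.6e-05), and Smchd1, which maintains silencing, fell from 83.7, 137, 170 and 120 CPM to 22.1, 22.1, 26.7, 38.3 and 44.6 CPM (log2 fold change -2.05 ± 0.3, adjusted p = 3.1e-05). The values of Smchd1 in 8-cell embryos lay above all morulae.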

How the data were processed

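Single-embryo Smart-seq2 libraries from poly(A) RNA were measured. The deposited counts are whole reads per gene, and the authors also deposited TPM values. Per the submitters' processing notes the tools were FastQC, MultiQC, cutadapt, HISAT2, featureCounts and edgeR with build GRCm39. Their roles, versions, annotation release and strand setting are not given in the sources used here, so reads of a gene and its antisense partner cannot be told apart. The reads carried no molecular identifiers that the labels name.

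Counts of all 24 libraries were analysed with edgeR 4.0.16 (R 4.3.3), with split sisters summed to 1 unit, giving 18 units in 5 groups with a common spread. Genes were filtered by filterByExpr on group, scaled by TMM and tested by the quasi-likelihood F test, robust and two-sided, with Benjamini-Hochberg adjustment over 15875 genes at 0.05. A self-test ran on simulated counts, with only 50 genes changed by each fold. It recovered 8% of 2-fold rises, 10% of 2-fold falls, 40% of 4-fold rises and 36% of 4-fold falls, with 0 false calls. The Benjamini-Hochberg cut-off depends on the share of genes called, which was 24.9% in the embryo data. These recovery rates therefore hold for the self-test only. The share of true changes of this size that goes without a call in the embryo data was not tested. Single values per embryo were compared by exact permutation.

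Genes named without another remark were the 12 largest fold changes each way among called genes with groups apart and at least 50 CPM, the 12 largest CPM differences each way, up to 4 called members with the largest change in each of 62 lists, members of 5 lists that were not called, and 8 abundant stable genes. A selection of these is described. Members and lists were chosen with earlier results of these data known. Promoters came from RefSeq on GRCm38.p6 and transcript lengths from GENCODE M21, both joined by symbol, and no coordinates were moved between builds.

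Alternatives were relative log expression (RLE) size factors, DESeq2 1.42.0, limma-voom and limma on log2(TPM + 1) (limma 3.58.1, pseudocount 1), other filters, the 9 embryos alone, sisters apart, thinned counts, a minimum fold of 1.5, a replicate block and leaving out each embryo. A count of 0 was bounded at 3 counts per library, which covers counting error only.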

Additional observations from a re-analysis of the deposited data

Results flagged for a closer look

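In 24 of 360 groups of values, 1 embryo stood apart from the rest of its stage, judged by its gap to the nearest embryo as a share of the group's range. Chance alone marks about 1 in 20 groups. In 4 of the 24 all other embryos of the stage were at 0, which fixes the share at 1, so these only mark the embryo that held counts, and 20 remain without them. The share is given after each level.

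At the 8-cell stage, embryo 1 was highest for Actb at 1285 CPM against 319 to 400 CPM (share 0.916), Aqp3 at 26.3 CPM against 0.751 to 1.84 CPM (0.957), Macroh2a1 at 19.8 CPM against 4.55 to 6.46 CPM (0.875) and Noto at 2.3 CPM against 0 to 0.236 CPM (0.897). All 4 of these genes rose by the morula stage. It alone had counts for Cdx2, at 2.04 CPM, and Tspan3, at 0.0295 CPM (1 in both). It was lowest for Fcgr3 at 29.7 CPM against 63.7 to 66.4 CPM (0.926), Hspa14 at 49.9 CPM against 81.9 to 87.7 CPM (0.846) and Snrpc at 440 CPM against 559 to 581 CPM (0.844). Embryo 2 was highest for Rbm15 at 101 CPM against 32.1 to 39.6 CPM (0.891). Embryo 3 was lowest for Gtf2a1 at 12.7 CPM against 38.3 to 41.3 CPM (0.893) and alone had counts for Glrx, at 0.0417 CPM (1). Embryo 4 alone had counts for Enpep, at 0.0674 CPM (1).

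Among morulae, embryo 5 was lowest for Macroh2a1 at 183 CPM against 319 to 341 CPM (0.865). It was highest for Hmox1 at 44.9 CPM against 14.5 to 22 CPM (0.754), Ubtfl1 at 37.7 CPM against 18.9 to 23.3 CPM (0.766) and Xist at 148 CPM against 0.0587 to 4.97 CPM (0.967). Morula 4 was highest for Ldhb at 3.34 CPM against 0 to 0.384 CPM (0.885) and Nlrp5 at 5.82 CPM against 0 to 0.176 CPM (0.97). Morula 3 was lowest for Atp6v1f at 258 CPM against 293 to 305 CPM (0.75), and morula 4 was lowest for Ctnna1 at 158 CPM against 260 to 287 CPM (0.787). Morula 1 was highest for Sc5d at 162 CPM against 86.7 to 108 CPM (0.72) and Scrib at 14.4 CPM against 1.92 to 3.99 CPM (0.834), and morula 2 for Hsp90b1 at 177 CPM against 102 to 123 CPM (0.722).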

How the results depend on the processing

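The test as reported called 3960 genes, 2267 higher and 1693 lower in morulae. A test against a minimum fold of 1.5 called 2620, with 1028 lower. The fit with the replicate block, on the 9 embryos alone, called 2393, with 1206 higher. Deviations of embryos from their stage means correlated at -0.031 to 0.033 over all pairings of numbers, and equal numbers did not stand out. These values cannot tell whether embryos shared a litter, culture day or batch. Leaving out each embryo called 3284 to 3652 genes, 1885 to 2134 of them higher and 1380 to 1560 lower. The other settings called 3079 to 5213, the most by DESeq2, and no gene called in both was reversed in any setting. Thinning all units to one depth called 3987. On the 9 embryos alone 11548 genes passed the filter, and the split was 1591 higher and 1568 lower. Limma-voom moved the median log2 fold change of all genes to 0.33, from 0.09, with a median shift of 0.01 over genes of at least 20 CPM and 0.09 over the others. The difference in the percent of counts from mitochondrially encoded proteins ranged from -0.708 to 0.0367 with 1 embryo left out, the highest without 8-cell embryo 3, and that in the share of the highest genes became -0.971 with 1000 genes counted. The log2 fold change of Fgf10, named nowhere else, ranged from -1.51 to 8.4, the lowest without morula 1, the embryo that held nearly all of its counts. The causes were not tested. Of 154 called genes whose values are given, 144 lost the call in no leave-one-out fit that tested them. In none of the 20 alternatives that tested them did 135 lose it. A gene that missed the filter of a fit was not tested there. Wee2 was tested in 14 of the 20, Oosp1 in 16 and Nlrp4a in 19. Setting genes with a group at 0 to their bound moved the median of only 2 of 62 lists, keratin and desmosome and blood. Depth limits low genes most, since 3 counts are 0.105 CPM at the median 8-cell library and 0.196 CPM at the median morula library.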
